A study of Homo sapiens with 6 samples.

Results

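The genes described here are 10 ligands of the CXC and CC chemokine families: CXCL1, CXCL2, CXCL3, CXCL5, CXCL6, CXCL10, CXCL12, CXCL16, CCL2 and CCL20. They were taken by name from a table of read counts, and all 10 had a row among its 16720 named rows. The cells were Hep3B, an established line that was grown from a human liver cancer (hepatocellular carcinoma). A group of 3 libraries labelled sgControl (genotype WT) was compared with a group of 3 libraries labelled sgRFX6 (genotype RFX6 knockout), and the question was how loss of the transcription factor RFX6 changes expression in these cells. Per the methods, RFX6 guides were delivered with Cas9 by a lentiviral vector, cells were selected with puromycin, and single-cell-derived clones were expanded. How many clones the libraries stand for is not given in the sources used here, so an effect of the clone and an effect of the knockout cannot be told apart. The columns of all 3 sgRFX6 libraries carry the name sg3, which the methods give to a guide. An effect particular to that guide cannot be told apart from the knockout either.

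Chemokines are small secreted proteins that bind receptors of the G protein-coupled class and direct the migration of leukocytes. The CXC ligands that carry a Glu-Leu-Arg motif (CXCL1, CXCL2, CXCL3, CXCL5 and CXCL6) act through CXCR1 or CXCR2 and attract neutrophils. CXCL10 is induced by interferon and recruits T cells through CXCR3, CXCL12 is the ligand of CXCR4 and ACKR3, and CXCL16 is a membrane-bound ligand of CXCR6 that proteases release from the cell surface. CCL2 attracts monocytes, and CCL20 attracts cells that carry CCR6. In hepatocytes and hepatoma cells, many of these genes are known to respond to NF-κB downstream of inflammatory cytokines.

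The promoters of the 5 genes with the Glu-Leu-Arg motif are shown because these genes share a stretch of sequence. Each line gives the 100 bases before the RefSeq transcription start, 5′ to 3′ on the strand of the gene (GRCh38.p14). Capitals mark GGGAATTTCCC, the longest stretch that all 5 promoters hold, which contains a sequence of the κB type that NF-κB is known to bind.
CXCL1, chr4:73869293-73869392, forward strand: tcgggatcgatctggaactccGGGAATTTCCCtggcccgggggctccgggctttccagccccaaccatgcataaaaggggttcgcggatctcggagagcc
CXCL2, chr4:74099196-74099295, reverse strand: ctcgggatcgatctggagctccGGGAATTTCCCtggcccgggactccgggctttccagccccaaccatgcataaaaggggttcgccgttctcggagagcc
CXCL3, chr4:74038690-74038789, reverse strand: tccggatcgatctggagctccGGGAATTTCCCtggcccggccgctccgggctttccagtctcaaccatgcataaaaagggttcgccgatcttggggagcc
CXCL5, chr4:73998678-73998777, reverse strand: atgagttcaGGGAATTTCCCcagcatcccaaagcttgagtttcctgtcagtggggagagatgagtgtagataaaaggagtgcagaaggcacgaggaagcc
CXCL6, chr4:73836578-73836677, forward strand: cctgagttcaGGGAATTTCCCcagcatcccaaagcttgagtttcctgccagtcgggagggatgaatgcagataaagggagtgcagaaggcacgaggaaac

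A RefSeq promoter was matched for 8 of the 10 members, all but CXCL16 and CCL2. Searched on both strands, GGGAATTTCCC was found in 27 of 35116 promoters of 300 bases (0.0769%), and among the members in the 5 shown above and not in CXCL10, CXCL12 or CCL20. It was read from these 5 promoters, so that they hold it follows from how it was found. It began at position -79 in CXCL1 and CXCL3, at -78 in CXCL2, at -91 in CXCL5 and at -90 in CXCL6, counted from the transcription start. The X-box motif of the RFX family was found in 0.812% of all promoters and in 0 of the 8 members matched. A match describes these letters only and says nothing of whether a factor binds there.

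The libraries held between 16730374 and 25070770 counts. Counts were expressed relative to the library total as CPM, scaled with edgeR's TMM factors. A filter on low counts left 12839 genes, which were all tested between the groups by the quasi-likelihood method of edgeR, with Benjamini-Hochberg adjustment. At these depths, 3 counts corresponded to 0.121 to 0.188 CPM, and values at or below 3 counts were treated as background. The targeted gene RFX6 was still transcribed in sgRFX6 (69, 59 and 77 counts, against 117, 144 and 170 in sgControl). Its log2 fold change was -0.82 with a standard error of 0.26 (edgeR, adjusted p = 0.142). RFX6 did not pass the threshold of 0.05, although the groups did not overlap. None of 18 hepatocyte and hepatoma markers was at or below 3 counts in every library. Among them KRT8, a keratin of simple epithelia, lay between 4531 and 7396 CPM and HNF4A, a liver transcription factor, between 109 and 161 CPM. The secreted protein ALB was low in both groups (12.9 to 32.1 CPM in sgControl and 18.4 to 26.2 CPM in sgRFX6). AFP was low in sgControl (1.58 to 2.31 CPM) and stood at 9.98 to 17.1 CPM in sgRFX6. TTR, APOA1 and GPC3 were also low, with 6 to 21, 14 to 49 and 7 to 30 counts in a library. All 18 markers were tested and edgeR called 4, against 3.74% of all genes. AFP and AHSG rose (log2 fold change 2.82 and 1.68) and FGA and FGB fell (-1.74 and -2.45). Only AHSG was lost in some alternatives (edgeR, adjusted p = 0.0533 without sgControl library 1, 0.0705 without sgControl library 3 and 0.0613 without sgRFX6 library 1). Of other cell types, the leukocyte markers CD3D and CD3E had at most 2 counts in any library and PTPRC had 4 to 22, and the summed level of the leukocyte list was 76.9 to 164 CPM in sgControl and 71.2 to 112 CPM in sgRFX6, most of it CD68. Of 6 leukocyte markers tested, edgeR called 1, against 3.74% of all genes. This was ITGAM, which rose (log2 fold change 1.26, adjusted p = 0.0449 from edgeR) and was called in 9 of 16 alternatives. Its adjusted p from edgeR was 0.182 with the regional correction, 0.0511 with a minimum count of 30 and 0.0339 to 0.203 with a library left out, and of these last fits only that without sgRFX6 library 3 called it. The endothelial list summed to 11.9 to 13.9 CPM in sgControl and 13.6 to 19.9 CPM in sgRFX6, and the 1 gene tested was not called. The fibroblast list summed to 54.0 to 63.0 CPM in sgControl and 21.8 to 57.3 CPM in sgRFX6. Of its 7 tested genes edgeR called 4, against 3.74% of all genes. COL1A1, COL1A2, COL3A1 and PDGFRA fell, with log2 fold changes of -2.08, -3.71, -9.32 and -4.43. COL1A1 was lost without sgControl library 3 or sgRFX6 library 1 (edgeR, adjusted p = 0.0558 and 0.065) and PDGFRA without sgRFX6 library 1 (0.0592).

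Of the 10 chemokine genes, 6 passed the filter on low counts and 4 were at or below 3 counts in every library. CXCL16 and CXCL5 were the most abundant, and CXCL1, CXCL2, CXCL3 and CCL20 lay near 1 CPM. By edgeR, 0 of the 6 passed the adjusted threshold of 0.05, which 3.74% of all tested genes passed. DESeq2 called 1 of them and 6.97% of all genes, and limma-voom with sample quality weights called 3 of them and 31.1% of all genes. At an unadjusted p-value under 0.05 there were 3 members (CXCL1, CXCL2 and CXCL16), where 15.6% of all genes passed. In CXCL2 and CXCL16 every sgRFX6 library was above every sgControl library, which held for 12.0% of all genes. CXCL1 was the reverse, and that order held for 11.2% of all genes. With only 6 genes tested, these counts say little about the family as a whole. The median log2 fold change of the 6 genes was 0.53, against 0.02 over all tested genes.

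**Figure D1:**
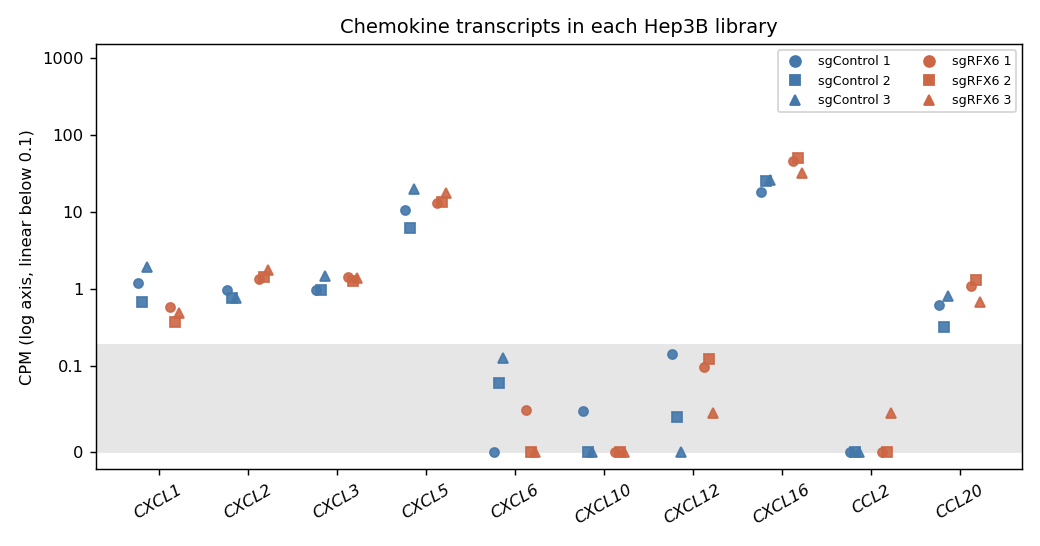
Level of the 10 chemokine genes in each Hep3B library, in CPM on a log axis that is linear below 0.1. Blue points are sgControl and orange points sgRFX6, with a marker for each library, and the grey band reaches to 0.188 CPM, the largest value that 3 counts stand for. CXCL6, CXCL10, CXCL12 and CCL2 lie in the grey band in all 6 libraries, and CXCL16 and CXCL5 are the highest.

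CXCL16, the transmembrane chemokine (chromosome 17, 4733526 to 4739922 of GRCh38, reverse strand), was the most abundant member per length, at 8.23 ± 1.59 RPKM in sgControl and 15.2 ± 3.45 RPKM in sgRFX6 (SD, n = 3 each). RPKM here is CPM per kilobase of annotated exon. The sgControl libraries held 372, 614 and 607 reads of CXCL16 (17.9, 24.9 and 26.2 CPM). The sgRFX6 libraries held 915, 804 and 702 reads (45.4, 50.5 and 31.9 CPM). All 3 sgRFX6 libraries were above all 3 sgControl libraries, with sgRFX6 library 3 the closest to them. The difference was 1.85-fold (log2 fold change 0.89, standard error 0.25), with an adjusted p-value of 0.102 from edgeR. The two-sided exact permutation test of its CPM gave p = 0.1, the smallest that 3 libraries against 3 allow. CXCL16 was called by DESeq2 (adjusted p = 0.022), by limma-voom with sample quality weights (adjusted p = 0.000786) and by edgeR once each library's trend with the GC content of transcripts was removed (adjusted p = 0.00816). These settings called 6.97%, 31.1% and 12.0% of the genes they tested. Without sgRFX6 library 3 the adjusted p-value of CXCL16 was 0.0303 from edgeR, and without sgControl library 1 it was 0.309. The nearest 50 tested genes on its chromosome had a median log2 fold change of -0.05. CXCL16 is also made by macrophages. Among the leukocyte markers tested, ITGAM and LYZ were higher in every sgRFX6 library than in any sgControl library, in the same direction as CXCL16. ITGAM stood at 2.79, 3.68 and 2.72 CPM in sgControl and 7.20, 8.92 and 6.04 CPM in sgRFX6, and LYZ at 0.241, 0.729 and 0.388 against 1.44, 2.26 and 1.82 CPM (edgeR, adjusted p = 0.0526). The groups overlapped for CD68, CD14 and PTPRC, and CSF1R, LAPTM5, NKG7, CD3D and CD3E had at most 4 counts in any library. The part of these markers in the level of CXCL16 was not tested.

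CXCL5, which attracts neutrophils (chromosome 4, 73995642 to 73998779, reverse strand), was the next most abundant, at 4.84 ± 2.77 RPKM in sgControl and 5.77 ± 0.991 RPKM in sgRFX6 (SD, n = 3 each). In CPM, the sgControl libraries stood at 10.7, 6.15 and 20.0 and the sgRFX6 libraries at 12.9, 13.6 and 17.5. The sgControl libraries spanned the whole range of the sgRFX6 libraries, so the groups overlapped. CXCL5 had a log2 fold change of 0.25 with a standard error of 0.40 (edgeR, adjusted p = 0.852), and this value was 0.83 without sgControl library 3 and -0.07 without sgControl library 2. With limma-voom and sample quality weights it was -0.29, so no direction can be given.

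CXCL1, CXCL2 and CXCL3 are neighbouring genes of the same cluster on chromosome 4, whose products are close relatives. CXCL1 lies at 73869393 to 73871242 on the forward strand, CXCL2 at 74097035 to 74099293 and CXCL3 at 74036589 to 74038807, both on the reverse strand. Their mRNAs share stretches. Of the 50-base words in the longest coding transcript of each gene, 5.73% of those of CXCL1, 9.24% of CXCL2 and 5.26% of CXCL3 also occur in another of these genes. Reads from such stretches could be split or moved between them by the counting, so their levels are somewhat uncertain. The other members shared no such word.

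CXCL1 had the lower values in sgRFX6, with 12, 6 and 11 counts (0.596, 0.377 and 0.499 CPM). In sgControl it had 25, 17 and 45 counts (1.20, 0.688 and 1.94 CPM). The groups did not overlap, but sgControl library 2 and sgRFX6 library 1 were close together. The difference was 2.56-fold, a log2 fold change of -1.36 with a standard error of 0.48 (edgeR, adjusted p = 0.194; exact permutation test, p = 0.1). It was -0.89 without sgControl library 3 (adjusted p = 0.590 from edgeR) and -1.66 without sgControl library 2 (adjusted p = 0.0916 from edgeR). Limma-voom with sample quality weights called CXCL1 (log2 fold change -1.54, adjusted p = 0.00629).

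The order of the groups was the opposite for CXCL2. It had 20, 19 and 18 counts in sgControl (0.963, 0.769 and 0.777 CPM), against 27, 23 and 39 in sgRFX6 (1.34, 1.44 and 1.77 CPM). Each sgRFX6 library was above each sgControl library. The spread within both groups was small, but at counts this low 3 libraries give only a rough measure of it. CXCL2 had a log2 fold change of 0.86 with a standard error of 0.34 (edgeR, adjusted p = 0.251; exact permutation test, p = 0.1). Limma-voom with sample quality weights placed it just under the threshold (adjusted p = 0.046). CXCL3 had 20, 24 and 34 counts in sgControl (0.963, 0.972 and 1.47 CPM), against 29, 20 and 31 in sgRFX6 (1.44, 1.26 and 1.41 CPM), and these groups overlapped. At 0.27, its log2 fold change was smaller than its standard error of 0.34 (edgeR, adjusted p = 0.805).

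**Figure D2:**
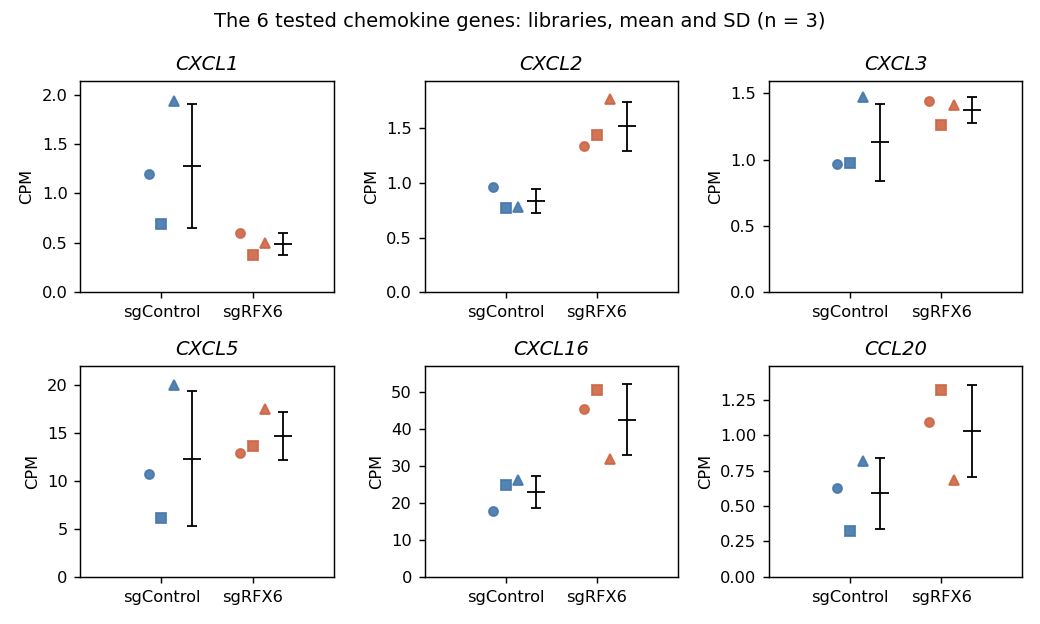
CPM of the 6 tested chemokine genes, each panel with its own axis from 0. Blue points are the sgControl and orange points the sgRFX6 libraries (circle, square and triangle for libraries 1, 2 and 3), and black bars give the mean and SD of 3 libraries. CXCL2 and CXCL16 are higher and CXCL1 is lower in sgRFX6 without overlap, while CXCL3, CXCL5 and CCL20 overlap.

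The ratio of 2 transcripts within a library does not depend on how libraries are scaled, and it was computed for all 15 pairs of the 6 tested genes. The ratio of CXCL1 to CXCL2 counts was 1.25, 0.895 and 2.50 in sgControl and 0.444, 0.261 and 0.282 in sgRFX6. CXCL1 thus had counts near or above those of CXCL2 in sgControl and well below them in sgRFX6. The mean log2 ratio was lower by 2.08 in sgRFX6 (0.49 ± 0.74 against -1.59 ± 0.39, SD, n = 3 each; two-sided exact permutation p = 0.1). The ratios of CXCL1 to CXCL3, CXCL5, CXCL16 and CCL20 were also lower in every sgRFX6 library than in any sgControl library. The ratio to CXCL5 was the tightest in sgControl, at 0.112, 0.112 and 0.0972, against 0.0463, 0.0278 and 0.0285 in sgRFX6. All 5 pairs with CXCL1 failed to overlap, and in the other 10 pairs the groups overlapped. These 5 pairs share the counts of CXCL1 and are not independent. The smallest p that the design allows, 0.1, becomes 0.3 when adjusted over the 15 pairs, so no pair passed.

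**Figure D3:**
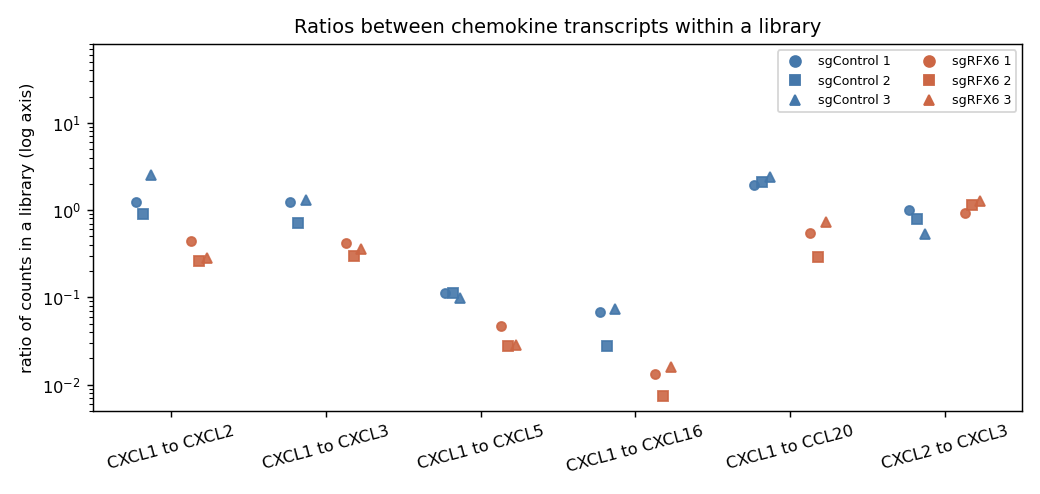
Ratio of the counts of 2 chemokine genes within each library, on a log axis, for the 5 pairs with CXCL1 and for CXCL2 to CXCL3. Blue points are sgControl and orange points sgRFX6. In each pair with CXCL1 the sgRFX6 points lie below the sgControl points, and for CXCL2 to CXCL3 the groups overlap.

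CCL20, the ligand of CCR6 (chromosome 2, 227805739 to 227817564, forward strand), had 13, 8 and 19 counts in sgControl (0.626, 0.324 and 0.820 CPM), against 22, 21 and 15 in sgRFX6 (1.09, 1.32 and 0.681 CPM). The groups overlapped through sgRFX6 library 3. CCL20 had a log2 fold change of 0.79 with a standard error of 0.47 (edgeR, adjusted p = 0.484), which lay between 0.49 and 1.13 over the alternatives. Per length, the 4 genes of lower level were close together. In sgControl the order was CXCL1 (0.986 ± 0.486 RPKM), CXCL2 (0.558 ± 0.0733), CXCL3 (0.511 ± 0.130) and CCL20 (0.370 ± 0.157), and each neighbour in that order lay within the spread. In sgRFX6 it was CXCL2 (1.01 ± 0.150 RPKM), CCL20 (0.647 ± 0.203), CXCL3 (0.616 ± 0.0441) and CXCL1 (0.379 ± 0.0846; SD, n = 3 each), with CXCL1 the lowest. There CCL20 and CXCL3 lay within their spread, and CXCL2 lay above CCL20 and CXCL3 above CXCL1 by more than either SD.

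The remaining 4 members were at background. CXCL6 had 0, 2 and 3 counts in sgControl, against 1, 0 and 0 in sgRFX6. CXCL10 had a single count, in sgControl library 1, and CCL2 had a single count, in sgRFX6 library 3. CXCL12 had 3, 1 and 0 counts in sgControl, against 2, 2 and 1 in sgRFX6. No difference could be detected for these 4 genes at this depth, and no fold change is given. CXCL6 and CXCL5, whose promoters both hold the stretch in capitals above, thus stood far apart in level.

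**Figure D4:**
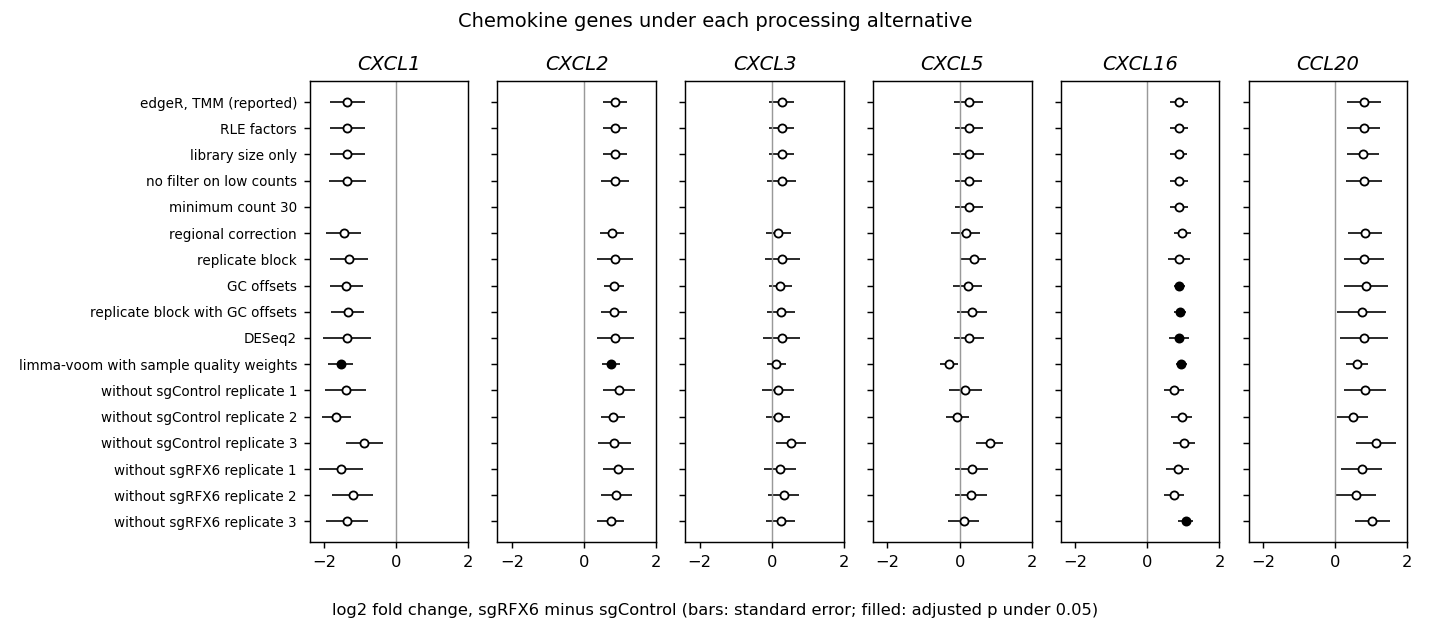
Log2 fold change (sgRFX6 minus sgControl) of the 6 tested genes under each way of processing the counts, with bars for the standard error and filled points for an adjusted p-value under 0.05. The top line is the reported fit. CXCL16 is to the right of 0 in every line and is called in 5 of 16 alternatives, CXCL1 is to the left of 0 in every line where it was tested, and CXCL5 lies on both sides.

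Other genes of chemokine signalling were taken from lists drawn up by function, with earlier results of these data already known. The counts called in these lists, set beside the share over all genes, therefore only describe the lists. Of 38 other chemokine ligands, 16 were in the table and 8 were tested. By edgeR none was called, 2 had an unadjusted p-value under 0.05 (CCL14 and CCL28), and limma-voom with sample quality weights called 4 and DESeq2 called 0, where these settings called 31.1% and 6.97% of all genes. Their median log2 fold change was 0.35. CXCL8, another neutrophil attractant of the chromosome 4 cluster, had 42, 15 and 16 counts in sgControl, against 3, 9 and 15 in sgRFX6. Its groups met at 15 counts and overlapped in CPM (log2 fold change -1.23 with a standard error of 0.66; edgeR, adjusted p = 0.429). Without sgControl library 1 the log2 fold change of CXCL8 was -0.48 (edgeR, adjusted p = 0.835), and limma-voom with sample quality weights called it at -1.97 (adjusted p = 0.0174). The most abundant of these ligands were CCL15, CX3CL1 and CCL26, at 5.87 to 14.2, 3.54 to 10.9 and 2.33 to 6.07 CPM over the 6 libraries, with adjusted p-values of 0.399, 0.589 and 0.718 from edgeR. CCL14 and CCL15 overlap a read-through transcript with a row of its own, so reads could be split between these rows.

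Of 23 chemokine receptors, 18 were in the table, 5 were tested and edgeR called 1 (ACKR3), against 3.74% of all genes. DESeq2 called 1 and limma-voom with sample quality weights 3, against 6.97% and 31.1% of all genes. ACKR3, an atypical receptor that binds and removes CXCL12 and CXCL11 without G protein signalling, fell from 50, 45.4 and 42.6 CPM in sgControl to 9.98, 9.99 and 8.17 CPM in sgRFX6. The groups were far apart and tight. This was 4.91-fold lower, a log2 fold change of -2.30 with a standard error of 0.21 (edgeR, adjusted p = 0.00107), and ACKR3 was called in all 16 alternatives. Its ligand CXCL12 was at background in both groups. The tested receptors CCRL2 and CXCR6 had log2 fold changes of 0.76 and -0.52 (adjusted p = 0.218 and 0.604 from edgeR). The signalling receptor of CXCL12, CXCR4, had at most 1 count in a library, and so had CXCR2, the receptor of the neutrophil attractants. CXCR6, the receptor of CXCL16, was low but present, with 8 to 21 counts.

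Of 14 genes listed for the shedding and cleavage of chemokines, which are proteases and protease inhibitors, 12 were in the table. Of these, 10 were tested and edgeR called 3, against 3.74% of all genes. DESeq2 called 4 and limma-voom with sample quality weights 6, against 6.97% and 31.1% of all genes. MMP1, the interstitial collagenase, fell by 3.17 in log2 with a standard error of 0.26 (edgeR, adjusted p = 0.000801), from 15.8, 14.8 and 18.6 CPM to 1.94, 2.01 and 1.54 CPM. MMP7, matrilysin, rose by 2.76 with a standard error of 0.26 (edgeR, adjusted p = 0.00123), from 14.8, 10.8 and 19.2 CPM to 82.2, 103 and 118 CPM. These neighbours on chromosome 11 thus moved in opposite directions, and the 50 tested genes closest to each had a median of 0.48 in log2 fold change for MMP1 and 0.49 for MMP7. FURIN, a proprotein convertase that activates ADAM10 and ADAM17, fell by 1.25 with a standard error of 0.21 (edgeR, adjusted p = 0.0144), from 174, 213 and 157 CPM to 93.3, 75.7 and 58.9 CPM. MMP1, MMP7 and FURIN were called in all 16 alternatives. MMP14 was lower in every sgRFX6 library than in any sgControl library, with a log2 fold change of -1.43 and a standard error of 0.36. It was not called in the reported fit (edgeR, adjusted p = 0.0692) but in 7 of 16 alternatives, among them DESeq2 (adjusted p = 0.00268). ADAM10 and ADAM17, the sheddases of CXCL16, differed by 0.01 and -0.04 in log2, less than their standard errors of 0.36 and 0.24 (edgeR, adjusted p = 0.993 and 0.966).

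**Figure D5:**
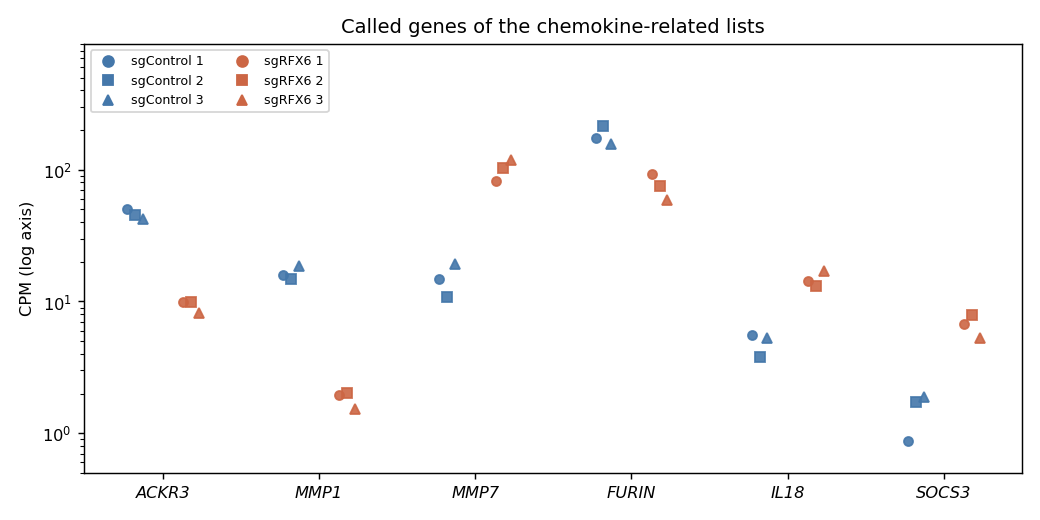
CPM on a log axis of the 6 genes called in the lists of receptors, proteases, cytokines and interferon signalling. Blue points are sgControl and orange points sgRFX6, with a marker for each library. ACKR3, MMP1 and FURIN are lower and MMP7, IL18 and SOCS3 are higher in every sgRFX6 library than in any sgControl library.

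Of 32 genes of the NF-κB pathway and its feedback, all were tested and none was called in edgeR. Limma-voom with sample quality weights called 5 genes, against 31.1% of all genes, and DESeq2 called 1, against 6.97%. Only BIRC3 had an unadjusted p-value under 0.05, and its groups did not overlap. It stood at 1.25, 1.09 and 1.42 CPM in sgControl and 2.48, 2.26 and 6.13 CPM in sgRFX6. Its log2 fold change was 1.53 with a standard error of 0.44 (edgeR, adjusted p = 0.114; 0.0424 by DESeq2). The nearest 50 tested genes had a median of 0.48, and the regional correction gave an adjusted p of 0.372 (edgeR). The median log2 fold change of the 32 genes was 0.03, close to that of all genes. The subunit RELA lay between 101 and 169 CPM and had a log2 fold change of 0.34 (edgeR, adjusted p = 0.499). IKBKG, the regulatory subunit of the IκB kinase, stood at 0.14, and TNIP1, a brake on the pathway, at -0.01 (edgeR, adjusted p = 0.854 and 0.990).

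Among 35 inflammatory cytokines and receptors, 20 were tested and edgeR called 1, against 3.74% of all genes. DESeq2 called 2 and limma-voom with sample quality weights 10, against 6.97% and 31.1% of all genes. The gene called by edgeR was IL18, a cytokine of the interleukin-1 family. IL18 rose from 5.54, 3.77 and 5.31 CPM to 14.2, 13.2 and 17.1 CPM (log2 fold change 1.61 with a standard error of 0.26; edgeR, adjusted p = 0.0114). Its adjusted p-value was 0.0617 without sgControl library 3 (edgeR). The 50 tested genes closest to IL18 had a median log2 fold change of 0.40. With the regional correction its log2 fold change was 1.25 (edgeR, adjusted p = 0.0448). The inducers of chemokines IL1B, TNF and IL6 had at most 8 counts in a library. The receptors for such signals were abundant. TNFRSF1A lay between 305 and 552 CPM, LTBR between 365 and 542 CPM and the adaptor kinase IRAK1 between 998 and 1812 CPM, with adjusted p-values of 0.941, 0.786 and 0.701 from edgeR.

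Of 27 genes of interferon signalling, 21 were tested and edgeR called 1 (SOCS3), against 3.74% of all genes. DESeq2 called 1 and limma-voom with sample quality weights 5, against 6.97% and 31.1% of all genes. SOCS3, which inhibits cytokine signalling, rose from 0.867, 1.74 and 1.90 CPM to 6.70, 7.85 and 5.31 CPM (log2 fold change 2.13 with a standard error of 0.36; edgeR, adjusted p = 0.0141). Its adjusted p-value was 0.0588 without sgRFX6 library 1. Of 16 genes that act on mRNAs with AU-rich elements, which the mRNAs of several chemokines carry, none was called in edgeR and 2 had an unadjusted p-value under 0.05. Limma-voom with sample quality weights called 4 of the 16, against 31.1% of all genes, and DESeq2 called 1, against 6.97%. At an unadjusted p-value under 0.05, the 2 genes were ZFP36L1 and ZFP36. These 2 genes went in opposite directions, each without overlap of the groups. ZFP36L1, which promotes the decay of such mRNAs, stood at -0.68 in log2 with a standard error of 0.17 (edgeR, adjusted p = 0.0652; 0.0137 by DESeq2). ZFP36 stood at 0.44 with a standard error of 0.18 (edgeR, adjusted p = 0.274; 0.00104 by limma-voom with sample quality weights). KHSRP and CNOT1 stood at -0.08 and -0.04 (edgeR, adjusted p = 0.909 and 0.951).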

How the data were processed

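RNA was sequenced from 6 Hep3B libraries, 3 labelled sgControl and 3 labelled sgRFX6. RNA was extracted with Trizol and read on an Illumina platform, and the authors deposited raw read counts for each gene, which were not normalised. The submitters' processing notes name the build GRCh38 (hg38). The aligner, counting program, strand setting and annotation are not given in the sources used here. The table's columns were assigned to samples by name and replicate number, and those named cas were taken as sgControl, the only control group. Nothing states that the replicates came from separate cultures, so p-values measure the spread between these libraries, which may be technical. Replicates differed by more than sampling noise (chi-square per degree of freedom 16.9 to 122).

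One row without a gene name, at most 9.17e-05% of a library's counts, was left out. Counts were tested with edgeR 4.0.16 in R 4.3.3 (filterByExpr, minimum count 10 and minimum total 15, TMM, quasi-likelihood test, no covariates). Benjamini-Hochberg adjustment ran over all 12839 tested genes, and an adjusted p-value under 0.05 counted as a call. Standard errors were the log2 fold change divided by the root of the F statistic. DESeq2 1.42.0 and limma 3.58.1 were alternatives, as were RLE factors, library size only, other filters, the replicate number as a block, offsets for GC content (a trend with span 0.3), removal of the median of the nearest 50 genes, and each library left out. GENCODE release 29 (GRCh38) gave the positions, exon lengths and GC content and matched 15422 row names by symbol and 260 by a synonym. Promoters came from RefSeq (GRCh38.p14).

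The members and lists were chosen with earlier results of these data known. All members are named, with RFX6, the genes called in each related list, otherwise up to 3 of its most abundant genes, and the gene of these lists most like each member. Other genes were named after their values were seen.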

Additional observations from a re-analysis of the deposited data

How the results depend on the processing

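Of 92 recomputed log2 fold changes of the 6 tested chemokine genes over 16 alternatives, 83 kept their direction and their side of the threshold, 7 passed it in the same direction and 2 changed direction, both for CXCL5 (-0.29 with limma-voom and sample quality weights, -0.07 without sgControl library 2, against up to 0.83 without sgControl library 3). With a minimum count of 30, CXCL1, CXCL2, CXCL3 and CCL20 were not tested. The number of members called, 0 in the reported fit, was 1 with DESeq2, 1 with GC offsets, 1 with GC offsets and the replicate block, 3 with limma-voom (CXCL1, CXCL2 and CXCL16) and 0 to 1 with a library left out, where the 1 came without sgRFX6 library 3. Each single call was CXCL16. Over all genes the count of 480 became 895 with DESeq2, 1468 with GC offsets, 3998 with limma-voom and 212 (without sgControl library 3) to 718 (without sgRFX6 library 3). It was 306, 216 and 307 without sgControl library 1, sgRFX6 library 1 and sgRFX6 library 2. RFX6 was called with GC offsets (log2 fold change -0.85) and with limma-voom (-0.96). The cause of these differences was not tested.

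The replicate numbers did not pair the libraries. Deviations from the group means correlated at -0.561, 0.233 and -0.116 between libraries of the same number, and no library correlated best with its own number. With the replicate number as a block, 648 genes and 0 chemokine members were called. CXCL1, CXCL2, CXCL3 and CCL20 had at most 45 counts in any library, which limits what these depths can show for them.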

Other observations

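The makeup of the chemokine transcripts can also be read as shares of the counts of the 10 genes in a library. CXCL16 held 54.9%, 73.4% and 51.1% of them in sgControl and 72.2%, 73.6% and 59.2% in sgRFX6. CXCL5 held 32.9%, 18.2% and 38.9% in sgControl and 20.4%, 19.8% and 32.5% in sgRFX6. Both shares overlapped between the groups. CXCL1 held 3.69%, 2.03% and 3.78% in sgControl and 0.947%, 0.549% and 0.927% in sgRFX6, without overlap. The 10 genes together summed to 32.6, 33.9 and 51.3 CPM in sgControl and 62.9, 68.6 and 53.8 CPM in sgRFX6, and the neutrophil attractants CXCL1, CXCL2, CXCL3, CXCL5 and CXCL6 to 13.9, 8.66 and 24.3 CPM in sgControl and 16.3, 16.6 and 21.2 CPM in sgRFX6. The first of these sums did not overlap between the groups and the second did. CXCL16 made up most of the first sum, whose closest libraries stood at 51.3 and 53.8 CPM. Among all tested genes, 12.0% were higher in sgRFX6 without overlap.

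Among 112 tested genes of the related lists, the one whose log2 CPM followed each member most closely over the 6 libraries was OSMR for CXCL1, IL18 for CXCL2, NFKB1 for CXCL3 and CXCL5, TNFRSF1B for CXCL16 and IL6R for CCL20. Pearson's r was 0.94, 0.97, 0.83, 0.86, 0.97 and 0.94 for CXCL1, CXCL2, CXCL3, CXCL5, CXCL16 and CCL20. Each value is the highest of 112 over only 6 libraries, so high values follow in part from the choice. Where both genes differ between the 2 groups, that difference also adds to r. This likeness therefore only describes these 6 libraries.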
